A study of Sus scrofa with 9 samples.

Results

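The 10 genes described here serve protein folding in the endoplasmic reticulum (ER) and the sensing of unfolded protein there. They are the luminal chaperone HYOU1, the lectin chaperones CALR and CANX, the disulfide isomerases PDIA3, PDIA4, PDIA6 and P4HB, the stress sensor genes ERN1 and ATF6, and XBP1, the transcription factor gene that acts after ERN1. They were picked by symbol from the 23507 genes of a count table, each symbol matched 1 row, and all 10 passed the filter on low counts. The table covers polyadenylated RNA of pig (Sus scrofa, labelled WT) oocytes at metaphase II (MII), the arrested stage of a mature egg. Oocytes were matured in vitro inside their cumulus cell layers, in medium with porcine follicular fluid, gonadotrophins and EGF. In the group HS plus L-Asp, oocytes at the germinal vesicle stage spent 24 h at 41.5 °C with L-Asp, which usually stands for L-aspartic acid, and then stayed at 38.5 °C until MII. The labels list 0.5, 1.0 and 1.5 mmol/L for L-Asp and do not say which of these was sequenced. The group HS (heat stress) had the same heat without the compound. The control group stayed at 38.5 °C throughout. There were 3 libraries in each group. The submitters state 25 oocytes for a group but neither their split among libraries nor the animals they came from. The unknown number of oocytes behind a library limits the model, as does the mixture of oocyte RNA with any RNA of attached cumulus cells.

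Proteins that enter the ER are folded, glycosylated and joined by disulfide bonds before they leave for the cell surface. The Hsp70-type chaperone BiP (gene HSPA5) holds unfolded chains, calnexin and calreticulin bind trimmed sugar chains, and the disulfide isomerases form and reshuffle cysteine bridges. When unfolded protein accumulates, the sensors IRE1 (gene ERN1), ATF6 and PERK (gene EIF2AK3) start the unfolded protein response, which in many mammalian cells raises the RNA of these same chaperones. In oocytes this machinery handles secreted proteins such as the glycoproteins of the zona pellucida and the growth factors GDF9 and BMP15.

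Total counts per library were 41693395 to 49008681 in HS plus L-Asp, 46198885 to 53327419 in HS and 54965064 to 58361475 in control. The control libraries were nearly identical to each other. The median squared difference between a pair of libraries, relative to that expected of independent counts, was 5.20 to 5.23 in control, against 79.4 to 86.2 in HS plus L-Asp and 109 to 119 in HS. The control libraries were averaged into 1 library for the tests, whose spread was taken from the heated groups, so that p-values measure only the spread between the heated libraries, which may be technical. Genes that mark the oocyte summed to 17916 to 20982 CPM in HS plus L-Asp, 13956 to 18290 CPM in HS and 29372 to 29624 CPM in control (11 of 12 listed markers in the table). CPM are counts scaled to a library size of 1e6, with TMM factors. Most of each sum was BTG4, BMP15 and KPNA7. Other oocyte markers were low, with DDX4 at 7.13 to 31.0 CPM, NLRP5 at 7.78 to 17.0 CPM and ZAR1 at 12.8 to 24.3 CPM. BTG4 alone had 15736 to 15897 CPM in control and 5426 to 9649 CPM in heated libraries. Of the 11 markers 2 were higher and 5 lower than the averaged control in all HS libraries (17.3% and 25.0% of all genes tested). In all HS plus L-Asp libraries 3 were higher and 4 lower (19.0% and 26.0%). ZP4 was among the higher, at 702 to 711 CPM in control and 796 to 1967 CPM in heated libraries. Markers of cumulus and granulosa cells (20 of 25 in the table) summed to 1210 to 1251 CPM in HS plus L-Asp, 1219 to 1610 CPM in HS and 1192 to 1229 CPM in control, most of it RGS2 and VCAN. PTX3, a gene of expanding cumulus, had no count in any library, and of the 20 markers 8 were higher and 4 lower than the averaged control in all HS plus L-Asp libraries (19.0% and 26.0% of all genes tested). In all HS libraries 7 were higher and 2 lower than the averaged control (17.3% and 25.0% of all genes tested). Only 14 of the 20 passed the filter, whereas these shares cover only genes that passed it. CYP11A1 had 5.98, 6.37 and 15.1 CPM in HS, 0.687 to 7.80 CPM in HS plus L-Asp and 0 to 0.115 CPM in control. INHBA and GATA6 had no count in control and counts in every heated library. FST went the other way, at 24.8 to 43.4 CPM in HS and 48.6 to 50.3 CPM in control. Markers of theca and stroma (7 of 9 in the table, 4.75 to 12.5 CPM over all libraries), of blood and immune cells (5 of 8, 0.370 to 5.24 CPM) and of endothelium (3 of 6, 23.6 to 42.5 CPM, mostly TEK) had low sums. The part of these cells in the results below was not tested.

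Levels of different genes can be compared only per transcript length, for which the deposited FPKM values serve (fragments scaled by transcript length and library size). These values are scaled between libraries otherwise than the CPM, so a group difference in FPKM need not match that in CPM. PDIA4 had the highest mean of the 10 genes in every group, with 102 ± 6.08 FPKM in HS plus L-Asp, 79.7 ± 24.6 FPKM in HS and 68.8 ± 0.686 FPKM in control (SD, n = 3 libraries each). PDIA3, PDIA6 and CANX followed in that order in every group. PDIA3 measured 49.6 ± 19.5 FPKM in HS plus L-Asp, 66.0 ± 20.02 FPKM in HS and 60.8 ± 2.19 FPKM in control. PDIA6 measured 47.1 ± 8.22, 39.8 ± 5.63 and 38.1 ± 1.47 FPKM in the same groups, and CANX 24.1 ± 3.08, 21.8 ± 1.71 and 24.3 ± 0.393 FPKM. In control no neighbours in the order overlapped. PDIA4 and PDIA3 overlapped in HS (53.5 to 102 and 51.8 to 88.9 FPKM) but not in HS plus L-Asp, and PDIA3 and PDIA6 overlapped in HS plus L-Asp (34.7 to 71.6 and 41.1 to 56.5 FPKM) but not in HS. P4HB (2.78 ± 1.40, 2.01 ± 1.04 and 1.43 ± 0.137 FPKM) and XBP1 (0.372 ± 0.325, 0.326 ± 0.292 and 0.0566 ± 0.0173 FPKM) were last in every group. HYOU1, ATF6, ERN1 and CALR held the ranks between, at 7.91 to 17.9 FPKM on average in HS plus L-Asp, 6.47 to 11.9 FPKM in HS and 5.46 to 15.9 FPKM in control. CALR stood at rank 7 in HS plus L-Asp, rank 5 in HS and rank 8 in control, while HYOU1 stood at rank 5, rank 7 and rank 5. In HS the neighbours CALR, ATF6, HYOU1 and ERN1 each overlapped the next, and in HS plus L-Asp so did ATF6, CALR and ERN1. CANX (22.1 to 27.7 FPKM) and HYOU1 (14.6 to 23.4 FPKM) also overlapped in HS plus L-Asp.

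**Figure D1:**
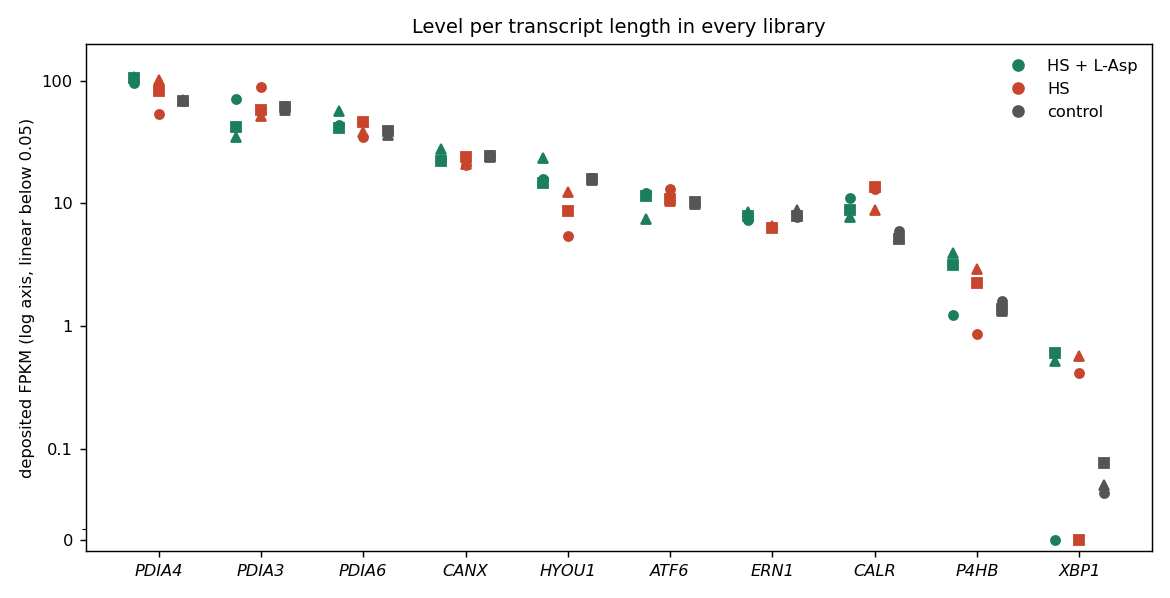
Deposited FPKM (log axis, linear below 0.05) of the 10 genes in each of the 9 libraries, with genes ordered by their control mean; circles, squares and triangles are replicates 1, 2 and 3. PDIA4 leads and XBP1 is last in every group, and XBP1 lies at 0 in 1 library of HS plus L-Asp and 1 of HS.

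HS against control asks what heat early in maturation did to these genes. HYOU1 was the lowest relative to control, with a mean of 59.2 ± 25.4 CPM in HS (SD, n = 3) and 118 CPM in the averaged control. CALR lay the other way, at 27.4 ± 5.19 CPM in HS and 14.1 CPM in control. None of the 10 genes passed the test across all genes. In the quasi-likelihood fit by edgeR, 0 of 10 genes and 0% of the 15012 genes tested had an adjusted p (Benjamini-Hochberg) under 0.05. At an unadjusted p under 0.05 there was 1 of the 10, HYOU1, which was lower, against 3.86% of all genes tested (1.96% higher and 1.90% lower). DESeq2 called 0 of 10 (1.01% of all genes), and edgeR with the control libraries as 3 replicates called 1, CALR (2.88% of all genes). All 3 HS libraries were higher than the averaged control for 1 of the 10 genes, beside 17.3% of all genes tested, and lower for 4 of the 10, beside 25.0%. The higher gene was CALR, and the lower ones were HYOU1, CANX, ERN1 and PDIA6, of which PDIA6 overlapped the single control libraries. The median log2 fold change of the 10 genes was 0.01, beside 0.00 over all genes tested, with 5 of 10 above 0 (50.1% of all genes) and 5 below (49.9%).

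HS plus L-Asp against HS asks what the compound added during the heat. HYOU1 was higher with L-Asp, at 122 ± 33.9 CPM in HS plus L-Asp and 59.2 ± 25.4 CPM in HS (SD, n = 3 each), and CANX and ERN1 were also higher in every L-Asp library than in any HS library. These 3 genes are 3 of 10 members whose libraries did not overlap in the higher direction, beside 6.31% of all genes tested. In the lower direction there were 0 of 10, beside 5.54%. No member passed the test: edgeR called 0 of 10 and 0% of all genes, DESeq2 called 0 of 10 and 1.10% of all genes, and edgeR on 9 libraries called 0 of 10 and 0.0133% of all genes. At an unadjusted p under 0.05 edgeR had 1 of 10, HYOU1, which was higher, and 6.61% of all genes (3.52% higher and 3.10% lower). The median log2 fold change of the 10 genes was 0.23, beside -0.01 over all genes tested, with 7 of 10 above 0 (49.0% of all genes) and 3 below (50.6%). This comparison shares the HS libraries with the one above, so that a low HS value enters both.

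HS plus L-Asp against control sets the oocytes heated with L-Asp beside unheated ones. CALR, at 21.8 ± 3.74 CPM in HS plus L-Asp and 14.1 CPM in control, and PDIA4, at 424 ± 28.5 and 311 CPM, were higher in all 3 L-Asp libraries than in any control library. They are 2 of 10 genes higher than the averaged control in all 3 libraries, beside 19.0% of all genes tested. ERN1 was the 1 of 10 lower than the averaged control in all 3, beside 26.0%. By edgeR's quasi-likelihood test 0 of 10 members and 0% of all genes passed, and 0 of 10 had an unadjusted p under 0.05, against 3.22% of all genes (1.63% higher and 1.60% lower). DESeq2 called 0 of 10 (0.386% of all genes), as did edgeR on 9 libraries (1.79%). The median log2 fold change was 0.11, beside 0.01 over all genes tested, with 6 of 10 above 0 (50.5% of all genes) and 4 below (49.5%). The control libraries serve in this comparison and in that of HS with control.

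**Figure D2:**
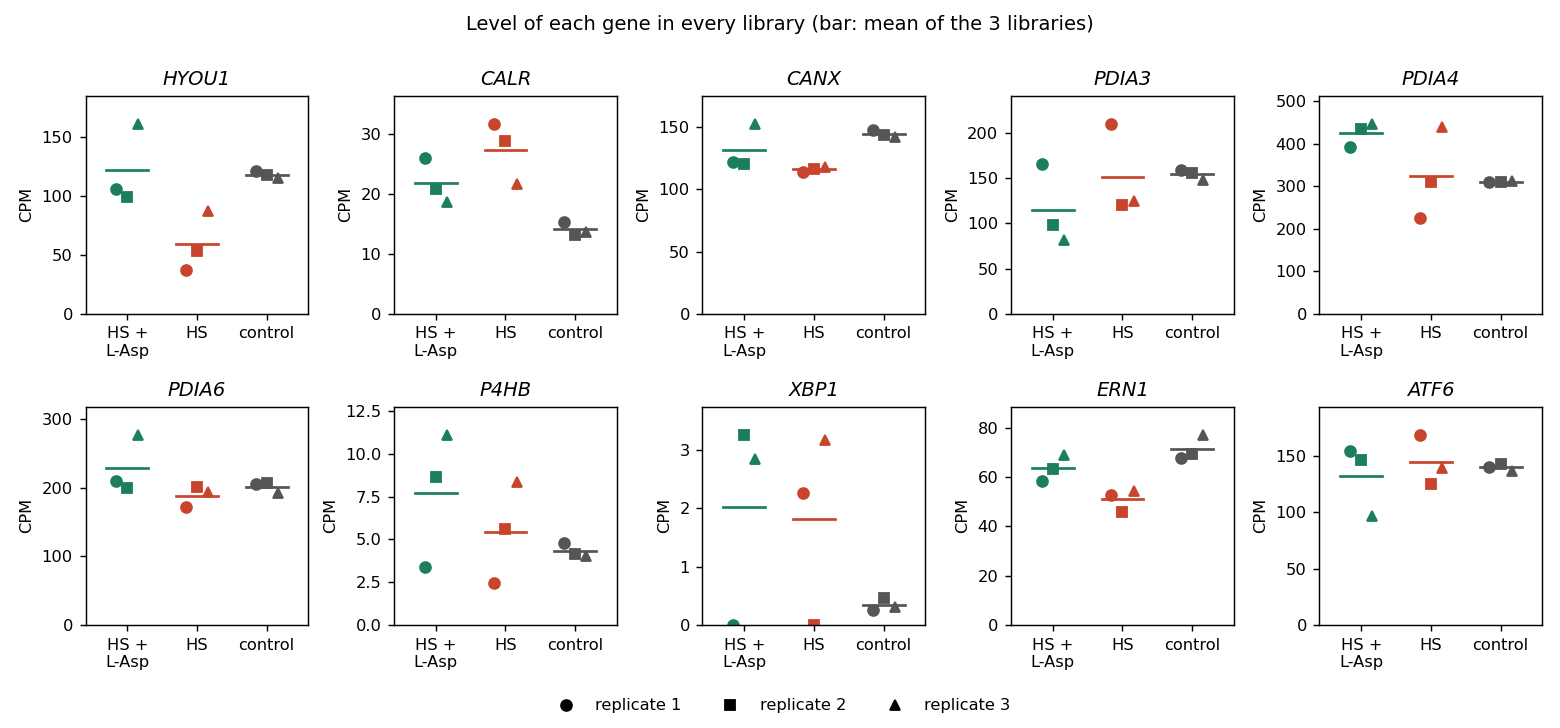
CPM of each of the 10 genes (linear axes from 0) in the 3 libraries of HS plus L-Asp, HS and control; bars are group means and marker shapes are replicate numbers. For HYOU1 all HS libraries lie at 37.3 to 87.1 CPM, under those of HS plus L-Asp and of control, and for CALR all HS libraries lie at 21.7 to 31.7 CPM, above the control at 13.2 to 15.4 CPM.

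HYOU1 encodes a large relative of the Hsp70 chaperones that exchanges nucleotide on BiP (ENSSSCG00000015106, chromosome 9, 46264933 to 46276995, minus strand, in the table's coordinates, whose build the labels do not name). It had 106, 98.8 and 161 CPM in HS plus L-Asp, 37.3, 53.1 and 87.1 CPM in HS, and 121, 118 and 115 CPM in control. All HS libraries were thus under the lowest library of either other group, and the HS libraries spread 2.34-fold among themselves. For HS against control the log2 fold change was -0.99 ± 0.43 (SE; 95% interval -1.93 to -0.06), and edgeR gave an adjusted p of 1. Between HS plus L-Asp and HS it was 1.04 ± 0.32 (95% interval 0.34 to 1.75), which ranked 112 by p among 15012 genes and had an adjusted p of 0.738 by edgeR. HS plus L-Asp and control overlapped, with a log2 fold change of 0.05 (95% interval -0.94 to 1.04). In bulk RNA of pooled oocytes, fewer cells of a type and less RNA per cell cannot be told apart, and with oligo(dT) priming neither can shorter tails and less RNA.

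CALR encodes calreticulin, the soluble lectin chaperone of the ER lumen (ENSSSCG00000013746, chromosome 2, 66098229 to 66102132, minus strand). It had 26.0, 20.9 and 18.7 CPM in HS plus L-Asp, 31.7, 28.9 and 21.7 CPM in HS, and 15.4, 13.2 and 13.7 CPM in control. Both heated groups lay above every control library and overlapped each other. The log2 fold change for HS against control was 0.96 ± 0.44 (SE; 95% interval -0.00 to 1.93). The adjusted p by edgeR was 1 on the averaged control, 0.0486 on 9 libraries and 0.0581 on 9 libraries with a replicate block. Between HS plus L-Asp and HS it was -0.33 (95% interval -0.97 to 0.31), and for HS plus L-Asp against control 0.63 (95% interval -0.31 to 1.58).

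CANX encodes calnexin, the membrane-bound lectin chaperone (ENSSSCG00000014020, chromosome 2, 78879033 to 78915827, minus strand). It had 122, 120.1 and 152 CPM in HS plus L-Asp, 114, 116 and 118 CPM in HS, and 147, 144 and 142 CPM in control. The HS libraries were below all others and within 1.04-fold of each other, the narrowest HS spread of the 10 genes, where the median gene of at least 10 CPM spread 1.59-fold. The differences were small beside the error of the fit: the log2 fold change was -0.31 (95% interval -0.91 to 0.29) for HS against control and 0.18 (95% interval -0.25 to 0.61) for HS plus L-Asp against HS. The ratio of CANX to CALR, which needs no scaling between libraries, was 2.04 to 3.54 in HS plus L-Asp, 1.56 to 2.37 in HS and 4.15 to 4.74 in control, in FPKM. Neither heated group reached the control range in this ratio. The ratios given here were chosen after the levels had been seen and carry no test.

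The disulfide isomerases did not follow 1 pattern. PDIA3, which acts on the glycoproteins that calnexin and calreticulin hold (ENSSSCG00000004700, chromosome 1, 127785772 to 127814196, minus strand), had 165, 98.4 and 81.6 CPM in HS plus L-Asp, 209, 120.2 and 125 CPM in HS, and 159, 155 and 148 CPM in control. In each heated group replicate 1 was above the control libraries and the other libraries were below them. Its log2 fold change was -0.02 (95% interval -0.97 to 0.93) for HS against control, while it was -0.40 (95% interval -1.07 to 0.28) for HS plus L-Asp against HS.

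PDIA4, an isomerase with several thioredoxin-like domains (ENSSSCG00000015453, chromosome 9, 109252011 to 109280247, plus strand), had 392, 434 and 446 CPM in HS plus L-Asp, 225, 311 and 439 CPM in HS, and 309.8, 309 and 313 CPM in control. The L-Asp libraries all lay above control, whereas HS libraries lay below it, level with it and above it. The log2 fold change was 0.06 (95% interval -0.70 to 0.82) for HS against control, 0.39 (95% interval -0.15 to 0.92) for HS plus L-Asp against HS and 0.45 (95% interval -0.33 to 1.23) for HS plus L-Asp against control.

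PDIA6, known in mammals also as a partner of the IRE1 sensor (ENSSSCG00000008633, chromosome 3, 125754294 to 125776077, plus strand), had 210.2, 199 and 277 CPM in HS plus L-Asp, 172, 201 and 193 CPM in HS, and 206, 207 and 192 CPM in control. All 3 groups overlapped, and the log2 fold change was -0.10 (95% interval -0.72 to 0.53) for HS against control and 0.28 (95% interval -0.17 to 0.73) for HS plus L-Asp against HS. Its 3′ part overlaps the antisense gene ATP6V1C2, which held at most 6 counts in any library.

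P4HB, the classical protein disulfide isomerase and a subunit of prolyl 4-hydroxylase (ENSSSCG00000039148, chromosome 12, 1121824 to 1131289, plus strand), had 3.41, 8.65 and 11.1 CPM in HS plus L-Asp, 2.45, 5.59 and 8.33 CPM in HS, and 4.80, 4.18 and 4.003 CPM in control. Replicate 1 of each heated group lay below control and the other heated libraries above it. Its intervals were wide, with a log2 fold change of 0.34 (95% interval -1.57 to 2.24) for HS against control and 0.50 (95% interval -0.82 to 1.82) for HS plus L-Asp against HS.

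Summed over the 4 isomerases, the level per length was 192 to 212 FPKM in HS plus L-Asp, 178 to 196 FPKM in HS and 166 to 172 FPKM in control. The place of HS above control in these sums depends on the scaling of the FPKM. In HS replicate 2 PDIA4 was 83.3 FPKM, against 68.3 to 69.6 FPKM in control. In CPM it was 311 there, against 309 to 313 in control. PDIA4 made up 45.0% to 54.8% of that sum in HS plus L-Asp, 30.0% to 52.3% in HS and 39.9% to 41.99% in control. PDIA3 made up 17.2% to 33.8%, 26.5% to 49.9% and 35.2% to 36.5% in the same groups, so that in HS replicate 1 PDIA3 took the larger share (49.9%, against 30.0% for PDIA4) and in every other library PDIA4 did. P4HB stayed under 2% in every library. The ratio of PDIA4 to HYOU1 in FPKM was 4.55 to 7.204 in HS plus L-Asp, 8.25 to 9.86 in HS and 4.21 to 4.45 in control, and no 2 groups overlapped in it. Within HS, PDIA4 itself spread 1.95-fold and HYOU1 2.34-fold, with the lowest value of each in replicate 1 and the highest in replicate 3.

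ERN1, whose product IRE1 is a kinase and RNase of the ER membrane (ENSSSCG00000039909, chromosome 12, 14881923 to 14963284, plus strand), had 58.4, 63.4 and 68.7 CPM in HS plus L-Asp, 52.7, 46.0 and 54.4 CPM in HS, and 67.5, 69.2 and 76.9 CPM in control. The HS libraries were below all others, and the L-Asp libraries overlapped the single control libraries. The log2 fold change was -0.48 (95% interval -1.14 to 0.18) for HS against control and 0.32 (95% interval -0.16 to 0.79) for HS plus L-Asp against HS.

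ATF6 encodes the sensor that is cut in the Golgi to free a transcription factor (ENSSSCG00000006346, chromosome 4, 88591288 to 88805304, minus strand). It had 155, 146 and 96.5 CPM in HS plus L-Asp, 168, 125 and 139 CPM in HS, and 140.3, 142 and 136 CPM in control. All 3 groups overlapped, with a log2 fold change of 0.04 (95% interval -0.69 to 0.77) for HS against control and -0.12 (95% interval -0.64 to 0.39) for HS plus L-Asp against HS. The ratio of ATF6 to ERN1 in FPKM was 0.885 to 1.67 in HS plus L-Asp, 1.61 to 2.01 in HS and 1.12 to 1.31 in control, so that all HS libraries exceeded control. EIF2AK3, the gene of the remaining sensor PERK, measured 0.113 ± 0.0587 FPKM in HS plus L-Asp, 0.287 ± 0.219 FPKM in HS and 0.286 ± 0.122 FPKM in control (SD, n = 3 each), against means of 6.47 to 8.14 FPKM for ERN1 and 10.1 to 11.5 FPKM for ATF6 over the groups.

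XBP1 encodes the transcription factor whose mRNA IRE1 splices (ENSSSCG00000030996, chromosome 14, 46008377 to 46016526, minus strand). It had 0, 161 and 120 counts in HS plus L-Asp, 112, 0 and 163 counts in HS, and 13, 24 and 16 counts in control. That is 0, 3.25 and 2.84 CPM in HS plus L-Asp, 2.27, 0 and 3.17 CPM in HS, and 0.263, 0.458 and 0.308 CPM in control. Heated libraries thus held XBP1 either at several times the control level or at a count of 0. A count of 0 does not show that XBP1 was absent or well below control. In the control libraries counts of 4 were more frequent than counts of 3 or 5 (604 to 657 genes against 318 to 351 and 216 to 235), so that 1 fragment added about 4 counts; taking 3 such fragments as the floor, a count of 0 allows up to 0.243 CPM in the L-Asp library and 0.234 CPM in the HS library. The control values lie above their own floors of 0.229 to 0.243 CPM, closely so in replicates 1 and 3. These limits cover counting error only, and the step of 4 counts was taken over from control. The libraries of each heated group spread from 0 to over 100 counts, and the 95% interval of the log2 fold change was -4.12 to 8.84 for HS against control. Counts per gene do not show whether XBP1 was spliced.

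**Figure D3:**
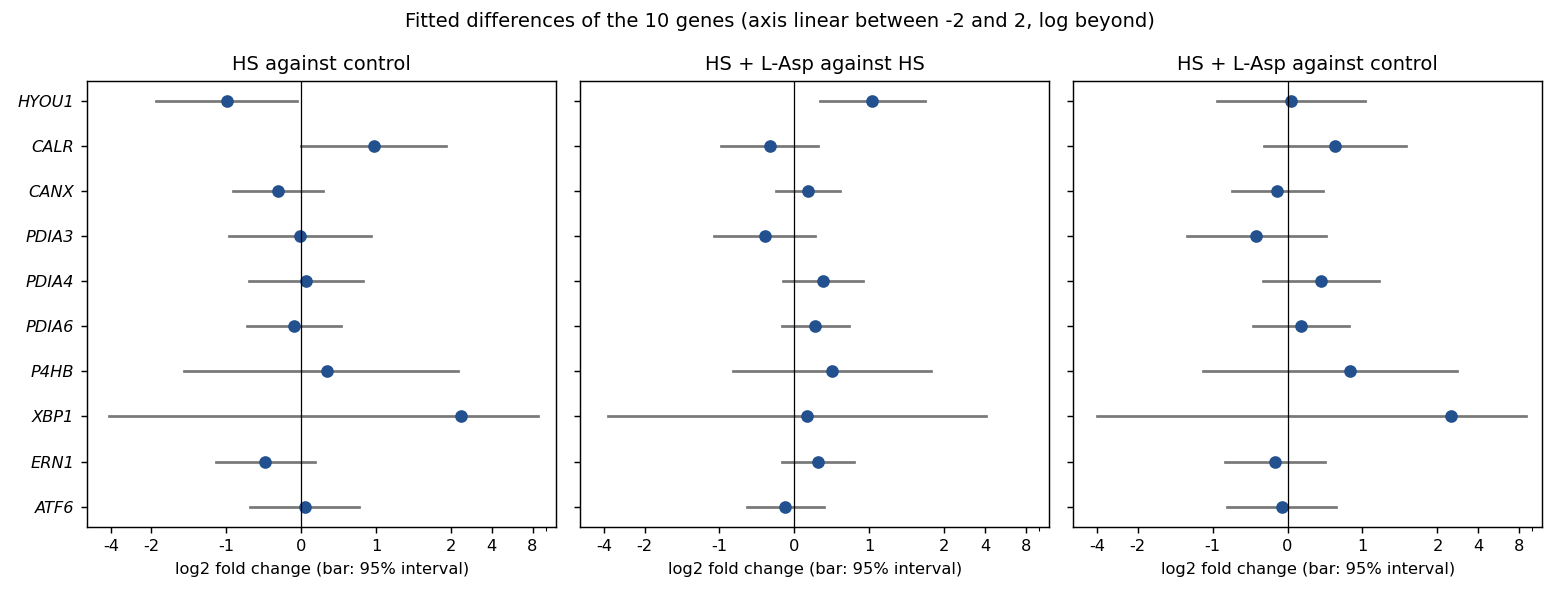
Fitted log2 fold changes of the 10 genes (points) with 95% intervals (bars) in the 3 comparisons, on an axis that is linear between -2 and 2 and logarithmic beyond. The interval of HYOU1 leaves out 0 for HS plus L-Asp against HS (0.34 to 1.75) and for HS against control (-1.93 to -0.06) before adjustment over all genes, and XBP1 has the widest interval in each comparison.

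Several genes shared an order of the heated libraries. HYOU1, CANX, PDIA4 and P4HB had their lowest HS value in replicate 1 and their highest in replicate 3, and also their highest L-Asp value in L-Asp replicate 3. CALR, PDIA3 and ATF6 had their highest HS value in HS replicate 1 and their highest L-Asp value in L-Asp replicate 1, with the lowest L-Asp value in L-Asp replicate 3. Replicate numbers were not taken to pair libraries across groups here. The share of counts from the mitochondrial genome also differed between these libraries, at 5.30%, 9.47% and 9.29% in HS plus L-Asp, 3.09%, 5.18% and 14.5% in HS and 10.0% to 10.1% in control, for replicates 1, 2 and 3 in the heated groups, and its part in the order was not tested. Together the 10 genes took 0.120% to 0.133% of all counts in HS plus L-Asp, 0.101% to 0.115% in HS and 0.103% to 0.105% in control. With TMM factors they summed on average to 1249 CPM in HS plus L-Asp, 1070 CPM in HS and 1158 CPM in control. The mean share of all counts was 0.109% in HS and 0.104% in control, so the order of these groups depended on the scaling.

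**Figure D4:**
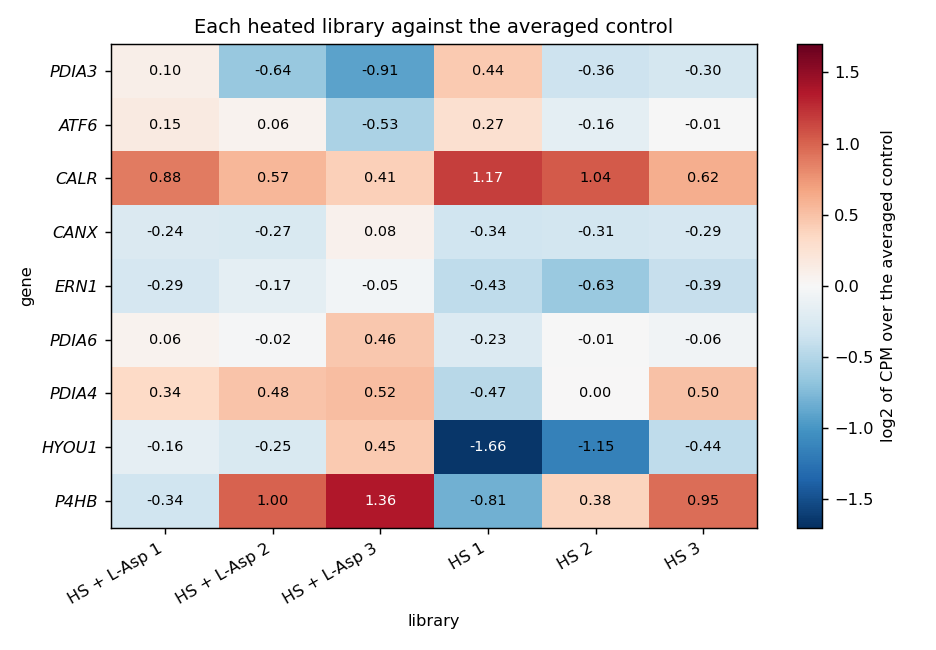
Log2 ratio of the CPM of each heated library to the averaged control for 9 of the 10 genes (XBP1 is left out because of its counts of 0); red is above and blue below control. CALR is above control in all 6 heated libraries (0.41 to 1.17), HYOU1 is below it in all HS libraries (-1.66 to -0.44), and PDIA3 and P4HB differ in sign between libraries of the same group.

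The genes with the most similar course over the 7 libraries were sought for the 3 members with the largest spread, by the root mean square difference of centred log2 CPM among 5758 genes with a symbol and at least 10 CPM. For HYOU1 these were TMCO6, ABTB2 and HAUS5, at 0.15, 0.17 and 0.20 log2 units. TMCO6 had 59.9, 66.1 and 108 CPM in HS plus L-Asp, 19.2, 34.1 and 53.7 CPM in HS, and 64.0, 64.0 and 58.9 CPM in control. For P4HB they were RNF5, COX8A and PADI4, at 0.20, 0.22 and 0.25 log2 units. For XBP1 the nearest, TEX12, RNF170 and HLF, were 2.07 to 2.09 log2 units away. XBP1 itself lay under the 10 CPM asked of the genes compared, so genes of its own level could not enter. This distance therefore does not show whether its course was unusual. These are the nearest of many genes over few libraries and are given as a description.

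The other genes of the pathway were taken from 4 lists. In each comparison edgeR called none of their members and 0% of all genes tested. In the list of other ER folding factors (34 of 35 tested) no gene had an unadjusted p under 0.05 in any of the 3 comparisons. Over all genes tested by edgeR the share was 3.86% for HS against control. It was 6.61% for HS plus L-Asp against HS and 3.22% for HS plus L-Asp against control. For HS against control, 4 of the 34 were higher and 9 lower in all HS libraries than the averaged control (17.3% and 25.0% of all genes tested), with a median log2 fold change of 0.02. With L-Asp, relative to HS, 1 of 34 was higher without overlap and 0 were lower (6.31% and 5.54% of all genes tested), and the median was -0.05. The gene that was higher without overlap was TXNDC11, a thioredoxin-domain protein of the ER, at 38.1 ± 8.29 CPM in HS plus L-Asp and 24.6 ± 5.89 CPM in HS (SD, n = 3 each), and it was 36.6 CPM in control. PPIB, an ER peptidyl-prolyl isomerase, measured 12.2 ± 7.47 CPM in HS and 6.36 CPM in control. FKBP9 and TMX4 had the smallest p for HS plus L-Asp against control, at 189 ± 20.8 and 36.8 ± 6.58 CPM in HS plus L-Asp and 318 and 65.3 CPM in control. PDILT, a testis-type isomerase, had no count in HS plus L-Asp and counts in 1 HS library.

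HSPA5, the gene of the chaperone on which HYOU1 acts, had 44.3, 24.4 and 23.6 CPM in HS plus L-Asp, 43.8, 41.7 and 25.4 CPM in HS, and 34.7, 37.2 and 34.2 CPM in control. All 3 groups overlapped. SIL1, the other nucleotide exchange factor of BiP, had 11.9, 12.7 and 8.55 CPM in HS plus L-Asp, 19.6, 19.95 and 9.10 CPM in HS, and 9.17, 12.01 and 12.4 CPM in control. Its HS libraries overlapped those of both other groups. CLGN, the germ cell relative of calnexin, measured 10.4 ± 2.58 FPKM in HS plus L-Asp, 13.5 ± 3.41 FPKM in HS and 11.2 ± 0.280 FPKM in control, which is under the level of CANX in each group, and CALR3, the relative of calreticulin, was under 0.2 FPKM on average in every group. ERO1B, an oxidase that recharges the disulfide isomerases, measured 33.1 ± 0.988 FPKM in HS plus L-Asp, 34.4 ± 2.17 FPKM in HS and 31.4 ± 0.407 FPKM in control, several times the level of its relative ERO1A (6.65 ± 1.40, 5.87 ± 1.74 and 6.30 ± 0.519 FPKM). These partner genes were named for their role, after their values had been seen.

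In the list of other genes of unfolded protein response signalling, 18 of 22 were tested. For HS against control 1 was higher and 1 lower at an unadjusted p under 0.05 (1.96% and 1.90% of all genes tested by edgeR), and the median log2 fold change was -0.08. In all HS libraries 4 of the 18 were higher and 7 lower than the averaged control (17.3% and 25.0% of all genes tested). TMBIM6, an ER membrane protein that dampens cell death, measured 56.6 ± 15.6 CPM in HS (SD, n = 3) and 190.4 CPM in control, a log2 fold change of -1.75 ± 0.39 (SE), for which edgeR gave an adjusted p of 0.437. It was also lower in HS plus L-Asp, at 75.2 ± 25.5 CPM (log2 fold change against control -1.34 ± 0.39, adjusted p of 1 by edgeR). ATF4, the transcription factor translated when PERK or related kinases are active, measured 91.5 ± 12.5 CPM in HS and 47.8 CPM in control. CHAC1, a glutathione-degrading enzyme and ATF4 target in mammals, measured 29.7 ± 9.70 CPM in HS plus L-Asp and 11.7 CPM in control. In HS CHAC1 measured 23.9 ± 7.18 CPM, also above control in all libraries. Between HS plus L-Asp and HS, 4 of 18 were higher and 1 lower without overlap (6.31% and 5.54% of all genes tested). Among the higher was CREB3L3, an ATF6-like membrane-bound factor, at 155 ± 19.5 CPM in HS plus L-Asp and 110.4 ± 20.9 CPM in HS. PPP1R15A, a phosphatase subunit that acts against PERK, measured 11.3 ± 4.66 CPM in HS plus L-Asp and 5.38 ± 2.73 CPM in HS, and these libraries overlapped.

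ER-associated degradation, which returns misfolded protein to the cytosol, was represented by 25 tested genes of 26. For HS against control 5 were higher and 6 lower than the averaged control in all HS libraries (17.3% and 25.0% of all genes tested), and the median log2 fold change was 0.03, with DERL1 at 26.5 ± 3.64 CPM in HS and 18.1 CPM in control, and HERPUD2 at 47.6 ± 17.3 and 67.1 CPM. NPLOC4, a cofactor of the extracting ATPase VCP, measured 6.03 ± 2.81 CPM in HS plus L-Asp and 1.44 CPM in control, and SEL1L, the partner of SYVN1, measured 21.4 ± 5.19 and 33.7 CPM. Relative to HS, 1 was higher with L-Asp and 3 lower without overlap (6.31% and 5.54% of all genes tested). SYVN1, the ubiquitin ligase of this pathway, was the higher one, at 77.2 ± 14.4 CPM in HS plus L-Asp and 53.1 ± 2.77 CPM in HS, and EDEM3, a mannosidase, was among the lower, at 1.05 ± 0.768 and 4.32 ± 2.61 CPM. All 28 genes of protein translocation into the ER and N-glycosylation were tested. In HS, 6 were higher and 8 lower than the averaged control in all libraries (17.3% and 25.0% of all genes tested), with a median log2 fold change of 0.05. Relative to HS, 0 were higher with L-Asp and 4 lower without overlap (6.31% and 5.54% of all genes tested), with a median log2 fold change of -0.08. SEC61A2, a translocon subunit, measured 166 ± 36.6 CPM in HS plus L-Asp, 87.6 ± 45.4 CPM in HS and 138 CPM in control, and overlapped between the heated groups. SEC11A, the catalytic subunit of signal peptidase, was lower than control in all heated libraries, at 581 ± 88.6 CPM in HS plus L-Asp, 586 ± 60.7 CPM in HS and 793 CPM in control. SEC61G, a small translocon subunit, measured 22.5 ± 3.03 CPM in HS plus L-Asp and 34.7 ± 6.89 CPM in HS without overlap. SPCS1, a signal peptidase subunit, measured 47.8 ± 19.02 CPM in HS plus L-Asp and 77.8 CPM in control. Set against control, the L-Asp libraries had medians of -0.04 for the other folding factors, 0.04 for unfolded protein response signalling, 0.00 for degradation and -0.04 for translocation and N-glycosylation on the log2 scale.

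**Figure D5:**
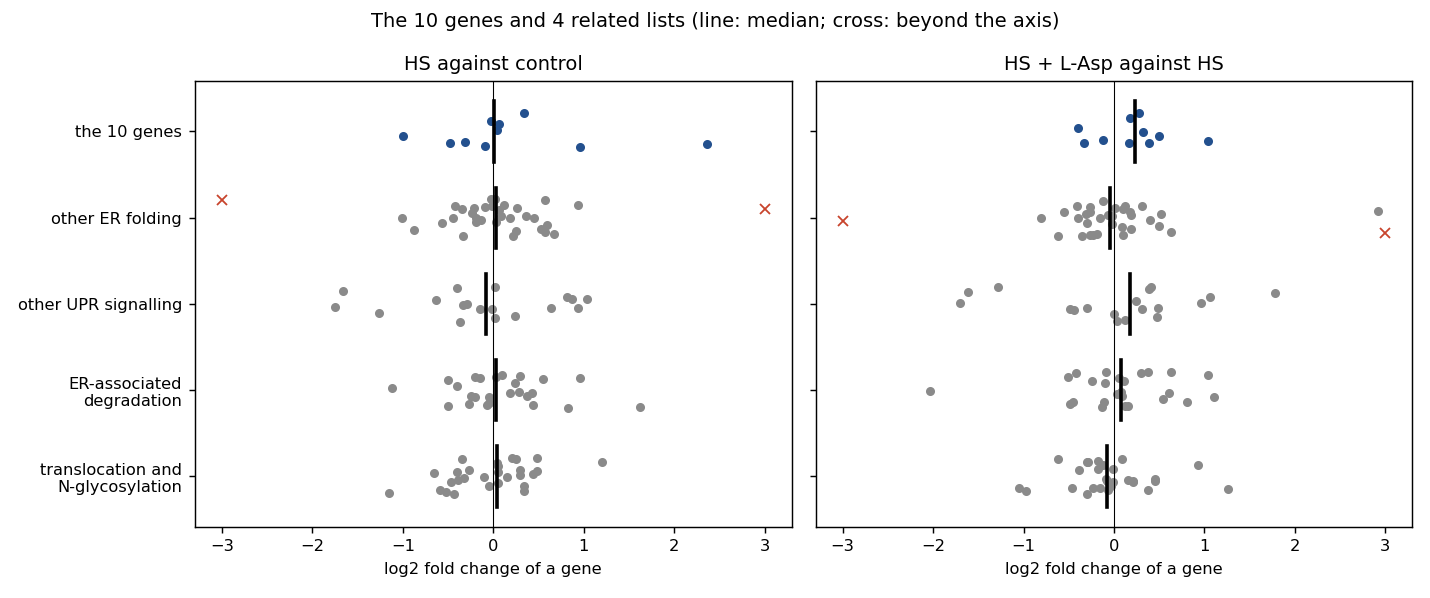
Fitted log2 fold changes of the tested genes (points) in the 10-gene set and the 4 related lists, for HS against control and for HS plus L-Asp against HS; vertical lines are medians and crosses are genes beyond the axis. All medians lie between -0.08 and 0.23, and the points of each list lie on both sides of 0.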

How the data were processed

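Polyadenylated RNA was sequenced from 9 libraries, 3 per group, with groups and replicate numbers from the sample titles. The deposited table gives raw counts per gene and FPKM values made by the authors, per the file headers. Tools listed in the submitters' processing notes, with no role stated, are HISAT2 2.2.1, StringTie 2.1.6, cutadapt 1.9, edgeR and DESeq2. The build and the counting settings are not stated in the labels. Neither strand marking nor molecular identifiers are described in the labels' protocol. Another 6 per-sample columns of the table were left aside.

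The members, lists and tests were chosen with earlier results of these data known. The rounded mean of the control counts served as 1 library beside 6 heated ones. Genes kept by filterByExpr on 9 libraries (15012) were scaled by TMM and tested with edgeR 4.0.16 (robust quasi-likelihood F test, 4 residual degrees of freedom, adjusted p under 0.05 a call). Intervals use the moderated t quantile. DESeq2 1.42.0, other filters, scalings and control handling, a replicate block and leaving out each library were alternatives, and leaving out mitochondrially encoded genes was added after seeing the data. Named genes of other lists were the 2 of smallest p per list and comparison, and partner genes were added by role. No sequence was used.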

Additional observations from a re-analysis of the deposited data

How the results depend on the processing

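Counts of called genes depended on how the control libraries entered and on the tool. For HS against control, where edgeR on 7 libraries called 0 genes, edgeR on 9 libraries called 433, DESeq2 172 and edgeR without a filter 9. For HS plus L-Asp against HS the counts were 2, 183 and 2, and 2 with the filter recomputed on 7 libraries. For HS plus L-Asp against control they were 269, 64 and 3. Leaving out 1 library gave 0 to 1, 0 to 3 and 0 to 1 genes in the 3 comparisons, the 3 genes without HS replicate 3 and 2 without HS replicate 1. With the replicate block on 9 libraries the counts were 378 for HS against control and 223 for HS plus L-Asp against control, and HYOU1 passed for HS against control (log2 fold change -1.08, adjusted p = 0.0375 by edgeR). Same-numbered libraries deviated together by correlations of only -0.02 to 0.05, so the numbers were not taken to pair them. CALR passed for HS against control on 9 libraries (adjusted p = 0.0486 by edgeR) and did not with the block on 9 libraries (adjusted p = 0.0581 by edgeR). Of 540 values of single members under alternatives, 516 kept their direction and their side of the threshold. This count says little about stability. Leaving out a library of the group outside a comparison hardly moved a value, and the main fit called no gene.

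Small differences turned sign. For HS against control PDIA3 was 0.011 with DESeq2 and with RLE factors and 0.15 with library totals, and PDIA6 was 0.094 with library totals. For HS plus L-Asp against control, library totals gave 0.041 for CANX, 0.0088 for ERN1 and 0.098 for ATF6, and the replicate block gave -0.0040 for HYOU1. The block gave -0.093 for XBP1 in HS plus L-Asp against HS, where it called 0 genes. Against control the scaling moved the median log2 fold change of all genes: in HS to 0.19 with library totals, 0.037 with RLE factors and 0.036 with DESeq2, and in HS plus L-Asp to 0.18 with library totals. Relative to the shift under library totals or RLE factors PDIA3 was -0.033 and -0.026. Taking off the shift nearly restores the main fit by construction, so it does not test the signs. With 1 library left out, the log2 fold change for HS against control ranged from -0.33 to 0.12 for PDIA3, -0.22 to 0.27 for PDIA4, -0.10 to 0.69 for P4HB and -0.082 to 0.14 for ATF6. Between HS plus L-Asp and HS it ranged from 0.79 to 1.44 for HYOU1, -0.42 to 0.86 for XBP1 and -0.25 to 0.062 for ATF6. It kept its sign but moved widely for PDIA3 (-0.75 to -0.089), P4HB (0.14 to 0.94), PDIA4 (0.18 to 0.67), PDIA6 (0.12 to 0.39) and CANX (0.061 to 0.26). Between HS plus L-Asp and control it ranged from -0.20 to 0.19 for HYOU1 and -0.20 to 0.11 for ATF6. The median of the 10 genes for HS plus L-Asp against HS was 0.090 without L-Asp replicate 3 and 0.35 without L-Asp replicate 1, against 0.23 with all libraries. The causes were not tested. The spread of the control was not measured, which limits every comparison with it.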
